A study of Homo sapiens with 4 samples.

Results

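The immediate early and ERK feedback genes examined here were FOS, FOSB, FOSL1, JUN, JUNB, EGR1, MYC, DUSP6, SPRY2 and SPRY4. They were taken by name, with every probe on the array whose RefSeq transcript belongs to one of them. All 10 genes were found, with 11 probes, among 20503 genes with a symbol and 50599 probes in all. The cells were MCF-10A, a human line of mammary epithelial cells, grown in a medium with hydrocortisone, insulin, cholera toxin and EGF and given a peptide at 10 µM. Per the labels the treatments were stapled-peptide or non-specific stapled-peptide for 24 h or 48 h, with 1 one-colour Agilent array for each of the 4 combinations and none for cells without a peptide. The study compared the peptides in these cells to look for effects away from their intended target. The labels do not pair these names with the numbered stapled ERAPs of the study, and they mark both arrays of the non-specific stapled-peptide as control. Each difference is therefore given by label, on the log2 scale, as the non-specific array minus the stapled-peptide array of the same time.

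Immediate early genes are transcribed within minutes of a growth factor signal, without the need for new protein synthesis. EGF binds its receptor and activates RAS, RAF, MEK and ERK in turn, and ERK then activates transcription factors that switch on FOS, EGR1, MYC and related genes. Fos and Jun proteins pair to form AP-1, a transcription factor with wide roles in growth and migration of epithelial cells. ERK output is held in check by its own products: DUSP6 removes the activating phosphates from ERK, and the Sprouty proteins SPRY2 and SPRY4 act on the pathway upstream of ERK.

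The upstream sequences of 3 members are shown because they hold the sequence elements that this kind of gene is known for, and because the levels of FOS and FOSB went opposite ways on one array. Each is the stretch of 150 bases before the transcription start in RefSeq, build GRCh38.p14, 5′ to 3′ on the strand of the gene. FOS lies at chr14:75278678-75278827 on the plus strand, FOSB at chr19:45467846-45467995 on the plus strand and EGR1 at chr5:138465329-138465478 on the plus strand. Capitals mark TGACGT (the core of a cyclic AMP response element) on either strand, TATAAA, and, in EGR1 alone, the CArG box to which serum response factor binds.
FOS: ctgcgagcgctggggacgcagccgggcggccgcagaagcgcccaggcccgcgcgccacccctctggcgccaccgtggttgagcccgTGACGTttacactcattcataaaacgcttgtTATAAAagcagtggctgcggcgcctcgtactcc
FOSB: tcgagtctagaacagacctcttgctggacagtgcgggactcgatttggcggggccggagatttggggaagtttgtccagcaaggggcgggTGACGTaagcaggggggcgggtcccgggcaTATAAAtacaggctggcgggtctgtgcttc
EGR1: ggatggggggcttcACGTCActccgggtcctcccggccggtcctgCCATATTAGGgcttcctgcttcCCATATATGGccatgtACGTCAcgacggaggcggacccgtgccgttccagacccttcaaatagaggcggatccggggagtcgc

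The search covered 250 bases before the start of 8 members on both strands. MYC and FOSL1 had no sequence in the table used. Within these bases EGR1 was the member with a CArG box and had 2 of these, at 105 to 96 and 83 to 74 bases before the start. At least 1 was found in 1.16% of 35116 windows of this length. Sequence farther upstream was not searched, so no match here does not mean that a gene lacks the element. TGACGT was found in FOS, FOSB and EGR1, against 7.10% of all windows, and TATAAA in FOS, FOSB and JUNB, against 3763 of the 35116 windows. FOS and FOSB shared both, with TGACGT starting 64 and 60 bases and TATAAA 33 and 30 bases before the start. The AP-1 element TGACTCA was in 0 of 8 members and in 4.20% of windows. CCGGAA, the core of an ETS site, was in FOSB and SPRY2 and in 14.5% of windows. GGGCGG, also searched for but not marked in capitals, was in 5 of 8 members and in 42.6% of windows. SPRY2 had 3 windows, 1 for each of its starts, and a match in any of them counted. Its CCGGAA and GGGCGG were in the same 1 of these, so its count and the share per window are not quite alike. A match here describes letters and not a bound site.

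Signals are log2 values after quantile normalisation over the 4 arrays, and a probe's level cannot be set against that of another probe. A probe counts as well above background if the scanner software marked the majority of its spots so. Where only 1 array of a comparison had that mark, the dim signal was replaced, if lower, by the weakest signal that had the mark on its array, and the difference is a bound. With 1 array per condition no test between conditions was possible, and precision is limited by the number of arrays. The available yardstick is the spread between the peptides at 24 h over probes of similar level, which had an SD of 0.12 to 0.46 on the log2 scale for the 11 probes and includes any effect of the peptides.

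One array stood apart from the rest. The array labelled as non-specific stapled-peptide at 48 h, called the non-specific 48 h array from here on, correlated with the other 3 at a Pearson r of 0.799 to 0.807 across the probes bright on at least 1 array of each pair. Among those other 3 arrays r was 0.976 to 0.978. These values are across probes, which are no independent replicates. All 4 arrays were on 1 slide and in 1 scan, and 62.5% to 65.7% of spots were well above background. A list of 15 markers was used for basal mammary epithelial cells, the labelled type. All 15 were well above background on each of the other 3 arrays, with a summed linear signal of 168457 to 175109. On this array 14 were, with a sum of 996, and 13 of 15 were lower at 48 h. EPCAM (0.88) and CDH1 (−0.31) stayed within 2-fold, and both were weak on the other 3 arrays, at 5.58 or below. Of 7 luminal markers, 5 had a difference at 48 h, with 2 lower and 0 higher by 2-fold or more. Their sum of 30507 to 32239 on the other 3 arrays and 6400 here came mostly from KRT18 and KRT8, and the probes used for PGR and ELF5 were dim throughout. Of 6 fibroblast markers, 5 had a difference, with 3 lower, and their sum of 29580 to 32062 against 185 came mostly from DCN. Of 8 markers of embryonic kidney lines, 4, 4 and 5 were well above background on the other 3 arrays and 6 on this one. At 48 h, 5 of them were higher and 0 lower by 2-fold or more, and their sum was 831 to 880 on the other 3 arrays and 43588 here. The higher ones were UCHL1, CKB, LIN28B, NEFL and HOXA9 (2.88, but 0.03 at its other probe). PAX8 (−0.95), PAX2 (−0.59, a bound) and L1CAM (−0.58, a bound) stayed within 2-fold. The other probe of PAX2 was higher by at least 3.89, so the probes of PAX2 and HOXA9 disagreed. The probes named in these sums were singled out after their values were seen. Every difference between the peptides at 48 h includes this array. Its basal markers go against its label as MCF-10A, whether it holds RNA of the labelled cells was not tested, and neither was the part of these marker shifts in the differences. In RNA from whole cultures, fewer cells of a type and less RNA per cell cannot be told apart.

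At 24 h the levels of the 10 genes lay close together with both peptides. None of the 10 differed by 2-fold or more (1 on the log2 scale), and the median difference was −0.02 against 0.01 over all 16228 genes with a difference. Among all genes, 0.838% were higher and 1.04% were lower by 2-fold or more. The differences ran from −0.16 for JUN to 0.45 for FOSB, whose probe lay close to background.

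At 48 h, 8 of the 10 genes differed by 2-fold or more. FOS, FOSL1, JUNB, EGR1, DUSP6 and SPRY4 were lower with non-specific stapled-peptide, JUN and FOSB were higher, and MYC and SPRY2 stayed within 2-fold. Large differences were common at this time, since 21.2% of 17112 genes were higher and 19.8% were lower by as much, or 27.2% and 16.3% without normalisation between arrays. The members' count of 6 lower genes of 10 stands against that 19.8%, and their 2 higher genes of 10 against the 21.2%, which is near the background. The members were chosen with earlier results of these data known, so these counts only describe them. The median over the 10 genes was −2.81, against 0.03 over all genes.

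**Figure D1:**
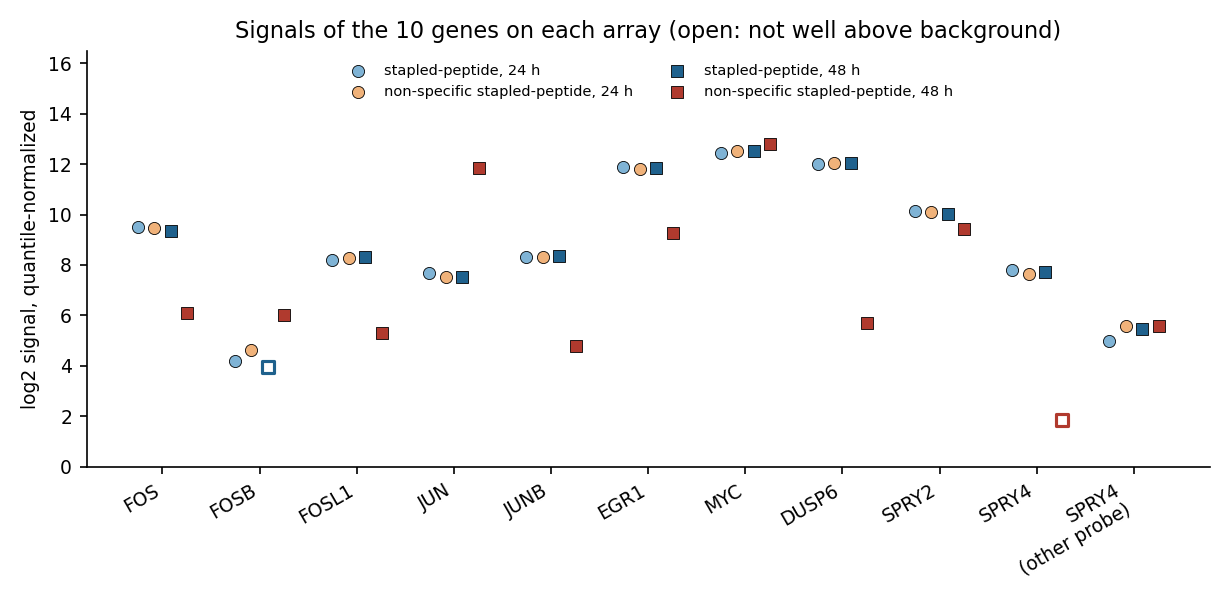
Quantile-normalised log2 signal (y axis) of each of the 11 probes of the 10 genes (x axis) on the 4 arrays, with circles for 24 h, squares for 48 h and open symbols for signals not well above background. The red squares, from the non-specific 48 h array, lie below the other 3 symbols for FOS, FOSL1, JUNB, EGR1, DUSP6 and the brighter SPRY4 probe and above them for JUN and FOSB; probes should not be compared with each other.

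Among the Fos genes, FOS, the founding AP-1 subunit, had log2 signals of 9.49 (stapled-peptide) and 9.46 (non-specific) at 24 h, and of 9.36 and 6.08 in the same order at 48 h. FOSL1, which encodes the Fos protein FRA1, had 8.19 and 8.27 at 24 h and 8.32 and 5.32 at 48 h. Both genes were thus low on the non-specific 48 h array alone, with a difference between the peptides of −3.28 (9.70-fold lower) for FOS and −3.0008 for FOSL1. FOSB went the other way. Its log2 signals were 4.19 and 4.64 at 24 h and 3.96 and 6.03 at 48 h, and the stapled-peptide signal at 48 h did not pass the background mark. The difference of FOSB at 48 h was at least 2.08 (at least 4.22-fold), but 0.76 and so within 2-fold after normexp background correction. The probe lay near background, and its other 3 values ranged over 0.68.

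The Jun genes went opposite ways at 48 h. JUN, which encodes c-Jun, had log2 signals of 7.67 and 7.51 at 24 h, and of 7.52 and 11.83 at 48 h. JUNB, whose protein can oppose c-Jun at some promoters, had 8.33 and 8.31 at 24 h, and 8.35 and 4.77 at 48 h. The high array for JUN was therefore the low array for JUNB, with a difference of 4.31 (19.9-fold) for JUN and of −3.58 (12.0-fold lower) for JUNB. As high a difference as that of JUN, or a higher one, was seen in 214 of 17112 genes (1.25%), with bounds taken at their value.

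EGR1, a zinc finger factor with 2 CArG boxes in the stretch shown above, had log2 signals of 11.88 and 11.82 at 24 h and of 11.86 and 9.25 at 48 h. Its difference at 48 h was −2.61 (6.12-fold lower).

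MYC, which drives growth and ribosome production, was measured by 10 spots on each array, the only member with replicate spots. With stapled-peptide their mean log2 signal (± SD of 10 spots) was 12.43 ± 0.07 at 24 h and 12.52 ± 0.06 at 48 h. With the non-specific one it was 12.54 ± 0.06 and 12.81 ± 0.09. The spots on the last array ran from 12.62 to 12.93 and those with stapled-peptide at 48 h from 12.41 to 12.63, so these ranges overlapped slightly. The difference at 48 h was 0.29 (1.22-fold), and it was 0.09 at its smallest and 0.42 at its largest when the arrays were scaled in other ways. That SD describes spots within an array, so it says nothing of how cultures vary.

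The feedback inhibitors differed among themselves. DUSP6 had log2 signals of 11.99 and 12.06 at 24 h, and of 12.05 and 5.69 at 48 h. Its difference of −6.36 (82.0-fold lower) was the largest measured on both arrays among the 10 genes, and 143 of 17112 genes (0.836%) were as low or lower, with bounds taken at their value. The non-specific 48 h array was again the low one. SPRY2 had 10.14 and 10.10 at 24 h and 10.03 and 9.43 at 48 h, and its difference of −0.60 (1.51-fold lower) was within the 2-fold threshold.

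SPRY4 had a pair of probes, both for the same transcript, and they disagreed. The brighter had log2 signals of 7.79 and 7.66 at 24 h and of 7.73 and 1.85 at 48 h, the last one not well above background. Its difference is a bound of −4.16 (at least 17.9-fold lower) in the main setting, but was −1.91 after normexp background correction. The dimmer probe had 4.99, 5.56, 5.46 and 5.57 and differed by 0.11 at 48 h. The value of SPRY4 thus rests on 1 probe, and the mean over its probes was −2.03.

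**Figure D2:**
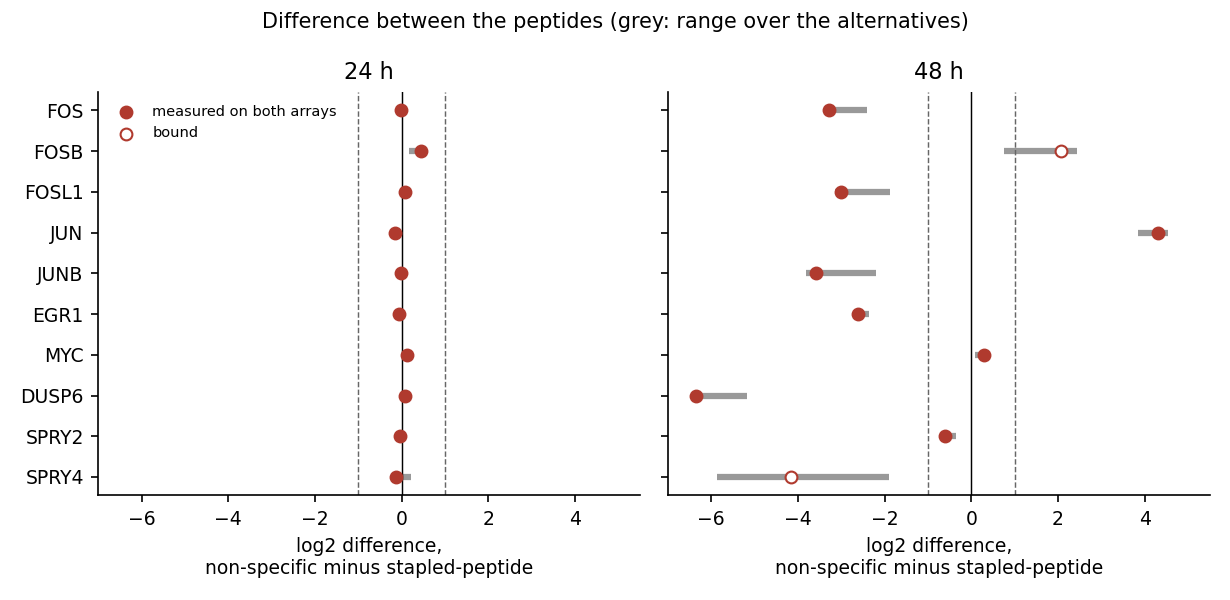
Log2 difference between the peptides (x axis; non-specific stapled-peptide minus stapled-peptide) for each of the 10 genes (y axis) at 24 h on the left and 48 h on the right, with grey bars for the range over the alternative settings and dashed lines at 2-fold. At 24 h every point lies between −0.16 and 0.45, and at 48 h they spread from −6.36 for DUSP6 to 4.31 for JUN.

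The comparisons between the times bear on the same question from another side, but those that use the non-specific 48 h array share it with the results above. With stapled-peptide, 0 of the 10 genes differed by 2-fold or more between 24 h and 48 h, where 0.923% of 16138 genes were higher and 1.13% lower at 48 h. Their differences ran from −0.23, a bound, for FOSB to 0.12 for FOSL1. With non-specific stapled-peptide, 2 genes were higher and 6 lower at 48 h than at 24 h, where 21.3% of 17297 genes were higher and 20.1% lower. In this comparison DUSP6 differed by −6.37, SPRY4 by −4.09 (a bound), JUNB by −3.54, FOS by −3.38, FOSL1 by −2.95, EGR1 by −2.56, JUN by 4.32, FOSB by 1.40, SPRY2 by −0.67 and MYC by 0.27. Over the 3 arrays without that one, 9 of the 11 probes ranged over 0.04 to 0.16, and the dim probes of FOSB and SPRY4 over 0.68 and 0.57.

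The wider pathway was described from lists of other genes, each at its brightest probe. Of 35 other AP-1 and immediate early genes, 33 had a difference at 48 h, 17 of them lower and 5 higher by 2-fold or more, where 19.8% of all genes were lower and 21.2% higher. The median of the list was −1.0045. The higher ones included 7.02 for ATF3, a stress-responsive partner of Jun proteins, whose other 3 probes ran from −0.06 to 4.88, 5.26 for BATF3, 2.01 for the orphan nuclear receptor NR4A3 and 1.72 for KLF10. The other probe of NR4A3 yielded no difference value. Among the lower were CCN2 (−6.68, a bound) and CCN1 (−4.12), which encode secreted matrix proteins, ZFP36 (−5.20), which promotes decay of AU-rich mRNAs, and IER3 (−4.79). The remaining Fos and Jun genes, named here after their values were seen, were FOSL2, with log2 signals of 8.28, 8.30, 8.38 and 5.03 and a difference of −3.35, and JUND, with −0.78. Of the Fos and Jun family, FOS, FOSL1, FOSL2 and JUNB were thus lower past 2-fold, JUN and FOSB higher, and JUND within it.

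Of 30 other ERK output and feedback genes, 28 had a difference, of which 17 were lower and 3 higher by 2-fold or more, against the same 19.8% and 21.2% of all genes, with a median of −2.28. Among the lower were PHLDA1 (−6.15, a bound), the ETS factor ETV1 (−4.38), the cyclin gene CCND1 (−4.15) and DUSP4 (−4.10), a nuclear phosphatase of ERK. DUSP9, another ERK phosphatase, was higher by 2.81, DUSP16, which acts on JNK, by at least 1.89, and the ephrin receptor EPHA4 by 1.01. Further paralogues of the members, also named after their values were seen, were SPRY1 with 0.38, the Sprouty-related SPRED1 with −2.67 and SPRED2 with −2.09, and DUSP1, a nuclear phosphatase, with −3.77.

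The next list held the kinases and adaptors of the cascade itself. All 29 genes of that list had a difference at 48 h, with 3 lower, 3 higher and 23 within 2-fold, or 20.7% past 2-fold against 41.0% of all genes, and a median of −0.29. The lower ones were the adaptor SHC1 (−5.10), RRAS (−4.01) and the kinase RPS6KA2 (−3.88), and the higher ones RPS6KA5 (2.58), KSR2 (at least 1.25) and MRAS (1.02). The other probes of RPS6KA5 and KSR2 yielded no difference value. Upstream, EGFR was lower by 2.82, and of 11 EGF receptors and ligands 10 had a difference, with 6 lower and 3 higher, again against 19.8% and 21.2% of all genes. The lower ligands included AREG, which encodes amphiregulin, with log2 signals of 13.94 and 14.16 at 24 h and of 14.00 and 5.40 at 48 h, EREG (−4.17, a bound) and EPGN (−3.66, a bound), while ERBB4 (at least 3.46), HBEGF (at least 1.43) and ERBB3 (1.32, with −0.54 and 0.56 at its other probes, 1 of these a bound) were higher. The other probe of ERBB4 yielded no difference value.

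Of 24 MYC partners and targets, 21 had a difference, with 6 higher and 2 lower by 2-fold or more and a median of 0.42. This is 38.1% past 2-fold, near the 41.0% of all genes. The higher ones included PPAT (1.79, but 0.52 at its other probe), which starts purine synthesis, the nucleolar methyltransferase FBL (1.62), CDK4 (1.29) and MGA (1.25), and the lower ones MXD4 (−1.75) and LDHA (−1.26). The probes used for MYCN, MYCL and TFAP4 were dim on all 4 arrays. Another probe of MYCL was higher by at least 4.10 at 48 h and is not in the counts above. At 24 h, 0 genes of these 5 lists passed 2-fold, and between the times with stapled-peptide likewise 0.

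**Figure D3:**
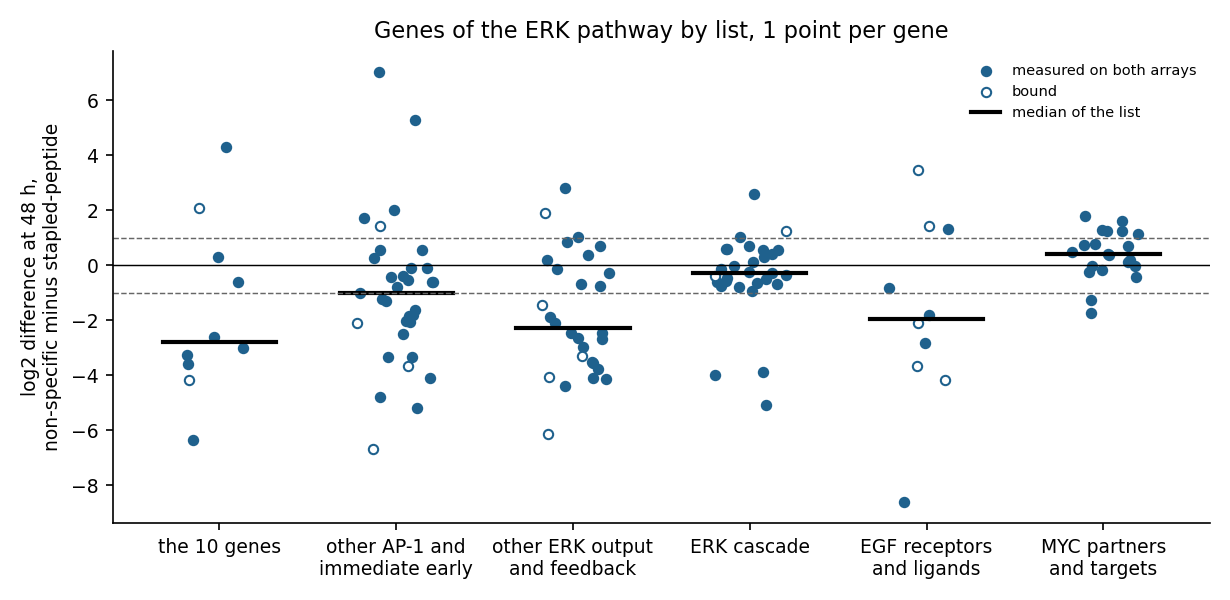
Log2 difference at 48 h (y axis; non-specific stapled-peptide minus stapled-peptide) of each gene of 6 lists (x axis), with a bar at the median, open circles for bounds and dashed lines at 2-fold; the side-to-side position within a list has no meaning. The medians are −2.81 for the 10 genes, −2.28 for other ERK output and feedback genes, −0.29 for the cascade, −1.97 for EGF receptors and ligands and 0.42 for MYC partners and targets.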

How the data were processed

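RNA of MCF-10A cells was hybridised to 4 one-colour (Cy3) Agilent arrays. Per the file headers, the authors' Feature Extraction run (version 10.7.1.1 there, 9.5 in the labels) made linear spot intensities with the background subtracted, and the deposited intensities were not normalised between arrays. The series' table of values holds the geometric mean of these over the spots of a probe within a relative tolerance of 0.001 for 99.4% to 99.5% of probes on each array. Positions of probes were not used.

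Control spots and spots marked as outliers were left out, log2 signals (held at a signal of at least 1) were averaged per probe, and 50590 probes were quantile-normalised, as the study's supplementary methods state (9 probes with no spot left were dropped). RefSeq accessions named 28174 probes (55.7%). Each gene is represented by the probe whose mean over the 4 arrays was highest, and the threshold is 2-fold. A bound under 1-fold gave no difference. The members and lists were chosen with earlier results of these data known. All members were named, and from each list up to 4 genes per direction, those that differed most past 2-fold at 48 h, with bounds at their value.

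Tried in turn were 75th-percentile scaling, no normalisation, normexp with an offset of 50 (limma 3.58.1 in R 4.3.3, on median pixel signals), no bound, restriction to probes bright on both arrays, outlier-marked spots kept, the series' table, averaging the probes of a gene, and thresholds of 1.5-fold and 4-fold. The steps were tested on simulated data. Scripts ran in Python 3.11.15 (pandas 2.3.3, numpy 2.4.6), with figures from matplotlib 3.10.9.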

Additional observations from a re-analysis of the deposited data

Results flagged for a closer look

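Among the list genes named above, 4 had differences of opposite sign under the same contrast, each larger than the SD at 24 h of probes of similar level. With 1 array per condition none of these was tested, and each larger value includes the 48 h array of non-specific stapled-peptide. NR4A3 differed between the peptides by −0.81 at 24 h and 2.01 at 48 h. MRAS differed by −0.17 and 1.02, and AREG by 0.21 and −8.60, in the same order. ETV1 differed between 48 h and 24 h by 0.21 with stapled-peptide and by −4.33 with non-specific stapled-peptide. Further genes of the lists, not named here, also met this criterion. None of the 10 immediate early and ERK feedback genes met this criterion. JUN fell just short of it, with −0.1585 at 24 h against an SD of 0.1590, and 4.31 at 48 h.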

How the results depend on the processing

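No paired analysis was possible because each condition has 1 array and the labels give no replicate numbers. Over the 4 comparisons, 21 of 396 single-gene values of the 10 genes under the alternatives moved by more than 0.34, the SD of gene differences between the peptides at 24 h. The 396 include settings that change only the threshold, where no value could move. Normexp moved 7 of the 10 genes between the peptides at 48 h, and 7 between the times with non-specific stapled-peptide. At 48 h the normexp values were −2.40 for FOS, −1.86 for FOSL1, −2.20 for JUNB and −5.17 for DUSP6. SPRY4 was at −1.91, JUN at 3.85 and FOSB at 0.76. No value past 2-fold changed its sign. SPRY4 at 24 h, within 2-fold, went from −0.13 to 0.22 on averaging its probes. At 48 h, 2 higher and 6 lower genes of the 10 became 1 and 6 under normexp, where FOSB was at 0.76, and 1 and 5 of 8 when restricted to probes bright on both arrays, a setting that drops the bounds of FOSB and SPRY4. Of all genes, 14.3% were higher and 13.4% lower under normexp, and 18.9% and 18.6% with that restriction. With a 1.5-fold threshold 2 were higher and 7 lower, against 31.9% and 30.5% of all genes. With a 4-fold threshold 2 were higher and 6 lower, against 8.10% and 8.70% of all genes. The median over the 10 genes, −2.81, was −1.88 under normexp and −2.32 on averaging the probes of a gene, which brings in the dimmer probe of SPRY4. Between the times with non-specific stapled-peptide the median was −2.76, and −1.85 and −2.30 under the same settings, and the 2 higher genes became 1 under normexp and 1 at 4-fold. Of all genes in this comparison, 14.1% were higher under normexp and 8.12% at 4-fold. The number of the 10 genes lying 2-fold or more outside the range of the other 3 arrays on the 48 h array of non-specific stapled-peptide was 8, and 6 to 9 under the alternatives. The share of all genes lying so was not computed, so this count only describes the members. Between the peptides at 48 h, 41.0% of all genes differed by 2-fold or more. Scaling to the 75th percentile shifted the median of all probes at 48 h to −0.34, against −0.03, and left the counts at 2 and 6. The cause of the changes under normexp was not tested. Outlier-marked spots were absent among the probes of the 10 genes, so keeping them tested nothing further there.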
